A study of Mus musculus with 4 samples.

Results

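E2F transcription factors and the genes that carry a cell through its cycle were described in brown adipose tissue (BAT) of Tg mice given AP or vehicle. The 39 genes were a named list of 5 E2F factors, 7 G1 cyclins and kinases, 13 S-phase genes and 14 mitotic genes, out of 20145 genes given a symbol on the array. The list was drawn up because E2f2 lay among the genes furthest below vehicle with AP on the same 4 arrays, so values of AP against vehicle for these genes are a description and carry no test.

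The Tg mice were male, of the C57/BL6N strain, and carried the maP2-Fv2E-PERK transgene, in which the mouse aP2 (Fabp4) promoter drives a fusion of the PERK kinase domain to an artificial dimerization domain. AP20187 (AP) is the synthetic ligand that joins those domains and switches the kinase on, and PERK phosphorylates eIF2α to start the integrated stress response (ISR). BAT was collected at 8 weeks of age, 12 h after an intraperitoneal injection of AP into 2 Tg mice or of vehicle into another 2, so all groups carried the transgene and no wild-type mouse was measured. The dose of AP was 1 ng/g in the sample labels and 0.05 mg/kg in a legend of the study, and these differ. The aP2 promoter is also known to be active in macrophages, the diet of these mice was not given in the sources used here, and nothing stated that replicate numbers paired the mice.

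E2F factors bind the promoters of genes for DNA synthesis and mitosis. In a resting cell the retinoblastoma family holds them inactive, and cyclin D with CDK4 and cyclin E with CDK2 release that hold late in G1. E2F1, E2F2 and E2F3 are known as activators, E2F7 and E2F8 as repressors that are themselves made in S phase. Mature brown adipocytes rarely divide, so cell cycle transcripts in BAT can also come from progenitors, endothelial cells and blood cells. In tissue RNA, fewer dividing cells and less RNA per cell cannot be told apart.

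Promoter stretches are shown because they hold the letters that tie the groups of genes together: E2F motifs in E2F and S-phase genes, and the CHR and CCAAT box of mitotic genes. The sequences are from RefSeq on GRCm38.p6, 5′ to 3′ on the strand of the gene, and capitals mark motif letters, with overlapping motifs run together.
E2f2, chr4:136172154-136172273, plus strand, ending at the base before its first annotated start: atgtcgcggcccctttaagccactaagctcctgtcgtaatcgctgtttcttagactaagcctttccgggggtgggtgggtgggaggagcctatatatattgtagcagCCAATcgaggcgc
E2f2, chr4:136172294-136172323, plus strand, bases 21 to 50 of that transcript: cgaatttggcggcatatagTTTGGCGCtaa
E2f3, chr13:29986064-29986183, minus strand, upstream of its start: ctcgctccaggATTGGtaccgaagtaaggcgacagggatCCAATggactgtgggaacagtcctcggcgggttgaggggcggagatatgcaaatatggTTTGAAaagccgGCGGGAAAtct
Mcm6, chr1:128359706-128359825, minus strand, upstream of its start: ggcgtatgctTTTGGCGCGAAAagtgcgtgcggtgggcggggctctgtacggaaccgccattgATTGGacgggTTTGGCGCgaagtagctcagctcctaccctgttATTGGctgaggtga
Mcm5, chr8:75109349-75109468, plus strand, upstream of its start: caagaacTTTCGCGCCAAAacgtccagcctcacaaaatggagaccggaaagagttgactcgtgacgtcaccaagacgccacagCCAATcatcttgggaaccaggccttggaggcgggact
Cdc20, chr4:118437344-118437463, minus strand, upstream of its start: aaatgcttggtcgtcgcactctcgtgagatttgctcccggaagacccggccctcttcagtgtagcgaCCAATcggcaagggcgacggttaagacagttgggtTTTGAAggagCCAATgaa
Top2a, chr11:99024190-99024309, minus strand, upstream of its start: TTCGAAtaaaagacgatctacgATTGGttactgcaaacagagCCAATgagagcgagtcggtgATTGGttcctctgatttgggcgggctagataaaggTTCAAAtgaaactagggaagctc

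The E2F motif was searched on both strands as TTTCGCGC, TTTGGCGC, TTTCCCGC or TTTGCCGC, in windows from 250 bases before to 50 bases after each annotated start. It stood in 2.3% of all 32851 windows and in 6 of 13 windows of S-phase genes, 3 of 7 of E2F factors, 1 of 5 of G1 genes and 1 of 11 of mitotic genes. The CHR, a mitotic gene element written TTTGAA or TTCGAA, stood in 19.2% of all windows and in 9 of 11 windows of mitotic genes, 3 of 7 of E2F factors, 2 of 13 of S-phase genes and 0 of 5 of G1 genes. The CCAAT box was in 37.4% of all windows and in 10 of 11 of mitotic genes, 5 of 7 of E2F factors, 9 of 13 of S-phase genes and 2 of 5 of G1 genes. The C/EBP-ATF response element bound by the ISR factor ATF4, written TGATGNAA, was in 4.0% of all windows and in 0 of the 36 windows of these genes. Of the 39 genes, 32 had a window, and Aurkb, Ccna2, Ccnd1, Ccnd2, Ccne2, Foxm1 and Mcm4 had none. These matches describe letters in the windows and do not show a bound factor.

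Each mouse had its own one-color array. A single slide held all 4 arrays, and they shared 1 scan. Slide positions were 1_1 for vehicle replicate 1, 2_1 for vehicle replicate 2, and 1_3 and 1_4 for AP. Position therefore cannot be separated from treatment. Vehicle replicate 2 alone had a position label beginning with 2, and the part of position in what sets that array apart below was not tested. Levels below are on a log2 scale, on which 0 is the processed signal at each array's own 75th percentile, and differences are AP minus vehicle on the same log2 scale. A gene was compared if both mice of either group had its probe well above background, which held for 12784 named genes. Of all 24970 probes compared, 0 passed an adjusted p of 0.05 (limma, Benjamini-Hochberg), 0.0% of them, and 1515, or 6.07%, had an unadjusted limma p under 0.05. The methods' t-test put 1478 probes under 0.05 unadjusted and 0 adjusted. The ISR genes Trib3 and Ddit3, which report the treatment, were higher on both AP arrays than on both vehicle arrays, by 4.57 and 1.61. Markers of brown adipocytes were well above background on all 4 arrays, 7 of 7, and their summed linear level was 6380 and 4240 with vehicle and 5080 and 5880 with AP. Of the 7, Dio2 differed most between the AP arrays, at -1.78 and 3.33, beside 0.49 and 1.53 with vehicle.

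Both vehicle arrays stood apart in some marker genes. Skeletal muscle markers were low on vehicle replicate 1, with a summed level of 27.4 against 500 on vehicle replicate 2 and 346 and 181 on the AP arrays. All 8 were highest on vehicle replicate 2, and without that array all 8 were higher on both AP arrays, by a median of 3.10, so comparisons with vehicle replicate 1 alone rest on an array that differs from the rest in muscle RNA. Of the genes compared below, 6 of 12 S-phase genes and 8 of 8 mitotic genes were highest on vehicle replicate 2, where 23.9% of all named genes were. The 3 lymphocyte markers compared were also highest on vehicle replicate 2, at a summed level of 4.7 against 2.69, 2.54 and 3.36, while Cd79a was well above background on no array. Of 5 macrophage markers 4 were highest there, and the sum was 38.2 against 30.7, 22.1 and 23.9. The other macrophage marker, Itgam, was highest on vehicle replicate 1, at 4.21 and 3.82 with vehicle and 2.85 and 3.42 with AP. The part of these cells in the values below was not tested. Values without vehicle replicate 2 are given for the genes they move most.

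Of the 39 genes, 30 were compared. Both AP arrays lay below both vehicle arrays for 8 of them, where 17.3% of all named genes compared did so, and above for 3, where 20.1% did so. The other 19 overlapped between the groups. Of the 26 well above background on all 4 arrays, 6 were lower and 3 higher in this sense, where 16.7% and 20.4% of all such genes were. The median difference of the 30 genes was -0.27, and that of all named genes was 0.01. Without vehicle replicate 2 the median of the 30 genes was 0.11, with 9 genes lower and 14 higher than vehicle replicate 1 on both AP arrays, where 37.0% and 32.7% of all named genes were. An unadjusted limma p under 0.05 was reached by 3 genes on the lower side, E2f1, E2f2 and Ccnb1, and by 0 on the higher side, where 2.26% and 3.79% of named genes were. Ccnb1 passed the filter through the vehicle arrays alone and was not well above background on either AP array. With only probes well above background on all 4 arrays, 2 members had an unadjusted limma p under 0.05. The list was chosen on these arrays, so nothing is read from these shares.

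**Figure D1:**
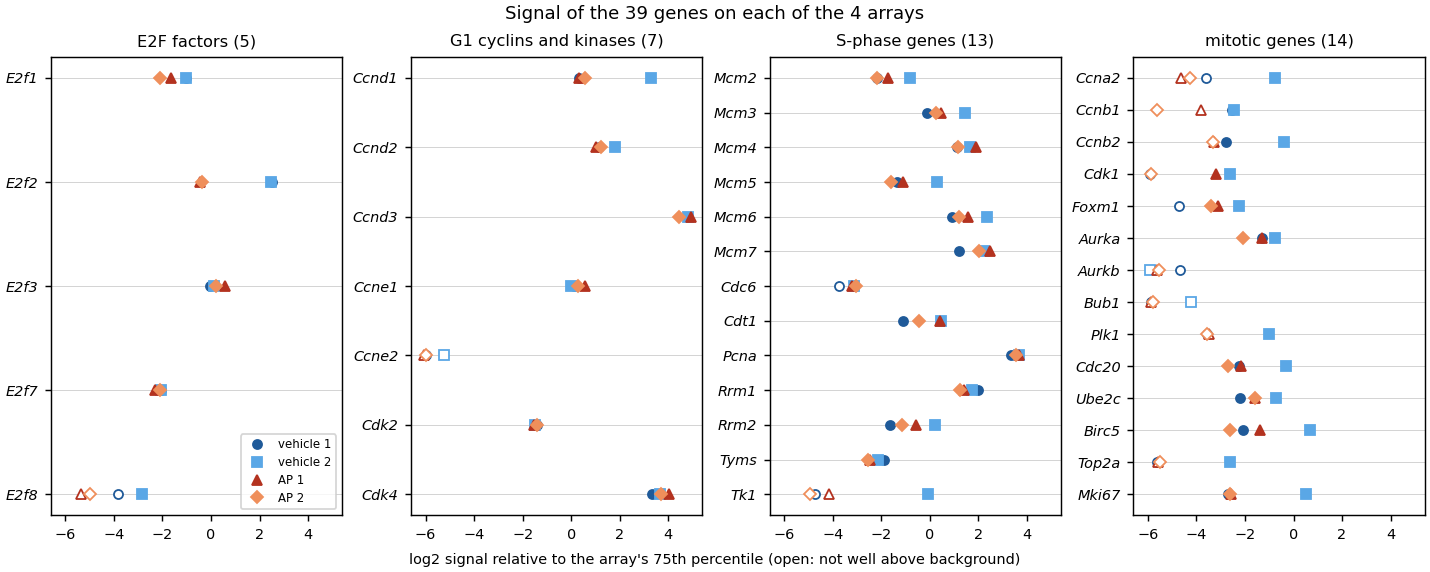
Log2 signal (x axes, 0 at each array's 75th percentile) of the 39 genes on each array, by role, with vehicle arrays in blue and AP arrays in red or orange, and open points where the probe was not well above background. E2f2 splits cleanly at about 2.5 with vehicle against -0.41 on average with AP. Vehicle replicate 2 (squares) is the highest point for 6 of 12 S-phase and 8 of 8 mitotic genes compared, beside 23.9% of all named genes. Levels of different genes cannot be compared.

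E2f2, an activator E2F, had the widest gap between the groups. Its signal was 2.52 and 2.48 on the vehicle arrays and -0.47 and -0.35 on the AP arrays, for group means of 2.50 ± 0.02 and -0.41 ± 0.08 (SD, n = 2). The difference was -2.91 with a standard error of 0.20, which is 7.52-fold lower with AP. The vehicle arrays were 0.03 apart and the AP arrays 0.12 apart. The list was drawn up for this fall of E2f2 on the same arrays, so its size beside that spread is a description and no test. Without vehicle replicate 2 the difference was -2.93. Among named genes compared, 4 were at least as far down as E2f2, itself included, and the others were Atp4b at -3.24, Syt10 at -3.20 and Car12 at -2.94. In each of those the AP arrays were far from each other, as for Atp4b at -2.31 and 2.16. Syt10 was not well above background on AP replicate 2, nor was Car12 on AP replicate 1. The value rests on 1 probe, A_51_P368009, and its promoter window holds 1 E2F motif at bases 40 to 47 after the first of its annotated starts, shown above. E2f2 is also known from maturing red cells, and the summed level of erythroid markers, mostly globins, was 804 and 480 with vehicle and 392 and 535 with AP. Each of the 5 erythroid markers compared had a lower mean with AP, at a median of -0.43. Slc4a1, the red cell anion exchanger, was lower on both AP arrays, at -1.09 and -1.94 with vehicle and -2.28 and -2.37 with AP. Without vehicle replicate 2 all 5 were lower on both AP arrays, by a median of -0.85, where 37.0% of all named genes were lower. Gata1, Klf1 and Epb42 were well above background on no array, and the part of red cells in the E2f2 difference was not tested.

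E2f1, the activator most tied to S-phase entry, was at -1.04 and -1.03 with vehicle and at -1.65 and -2.09 with AP. Both AP arrays were lower, by -0.84 on average with a standard error of 0.25, or 1.79-fold, and by -0.83 without vehicle replicate 2. With normexp, another background correction, the E2f1 difference was -0.35. E2f3, the remaining activator, had levels of -0.02 and 0.14 with vehicle and 0.59 and 0.20 with AP. It was higher on both AP arrays, by 0.34 (standard error 0.24), or by 0.41 without vehicle replicate 2, and a second, dimmer probe of the gene differed by 0.51. The activators therefore did not lie on the same side.

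The repressor E2f7 was at -2.05 and -2.07 with vehicle and at -2.29 and -2.11 with AP. That difference of -0.14 was under its standard error of 0.21, although the groups did not overlap. A second E2f7 probe read -4.48, -1.95, -3.34 and -4.48 in the same order of arrays and was highest on vehicle replicate 2. The repressor E2f8 was well above background on vehicle replicate 2 alone, with a signal of -2.84 against -3.83 on vehicle replicate 1 and -5.35 and -5.00 with AP, so no fold is given. For the 4 E2F factors compared, the median difference was -0.49 with and without vehicle replicate 2.

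**Figure D2:**
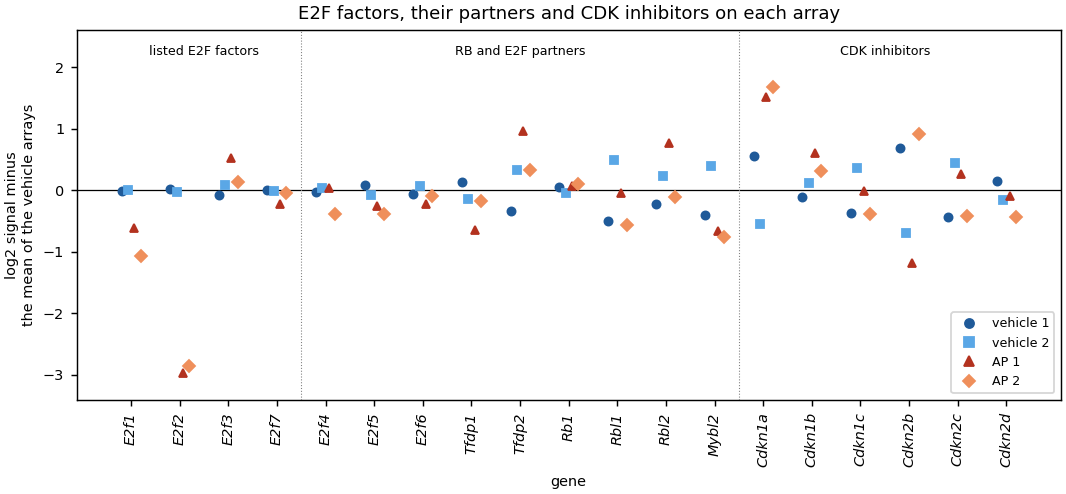
Log2 signal of each array minus the mean of the vehicle arrays (y axis), by gene (x axis). The genes are the E2F factors compared, other E2F and RB family genes, Tfdp1, Tfdp2, Mybl2 and CDK inhibitors. The AP arrays of E2f2 sit near -2.9 and those of E2f1 below 0, the partner genes scatter within about 1 of 0, and Cdkn1a is the inhibitor with both AP arrays well above both vehicle arrays.

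The partners of these factors were taken from a list of 13 genes, all of which were compared. It held genes of the RB and E2F families and their dimer partners, and also Lin9, Lin37, Lin52, Lin54 and Mybl2. Of these, 4 were lower on both AP arrays (E2f5, E2f6, Tfdp1 and Mybl2) and 1 was higher (Rb1), where 17.3% and 20.1% of all named genes were, and the median difference was -0.16. E2f4, E2f5 and E2f6, known as repressors with the pocket proteins or Polycomb, differed by -0.17, -0.33 and -0.17. Rb1, the retinoblastoma protein that restrains activator E2Fs, differed by 0.09. Tfdp1, the usual dimer partner of E2Fs, differed by -0.41, and Tfdp2, its relative, by 0.64 with overlapping groups, and by 0.98 without vehicle replicate 2. Mybl2, a known E2F target, was at -1.72 and -0.92 with vehicle and -1.98 and -2.08 with AP. Its difference of -0.71 became -0.32 without vehicle replicate 2. With all arrays, none of these was as far from 0 as E2f2 or E2f1.

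In a list of CDK inhibitors, other kinases and the cyclins Ccnh, Ccng1, Ccng2 and Ccnf, 11 genes were compared. Of these, Cdkn1a and Cdkn1b were higher on both AP arrays and 0 were lower, 18.2% on the higher side against 20.1% of all named genes. Cdkn1a encodes p21, which blocks CDK2 and so keeps the retinoblastoma family active. Its signal was 3.61 and 2.50 with vehicle and 4.56 and 4.72 with AP, a difference of 1.59 (standard error 0.42). Part of that came from the low vehicle replicate 2, since the difference from vehicle replicate 1 alone was 1.03. Cdkn1b, which encodes the related inhibitor p27, read 2.43 and 2.66 with vehicle and 3.15 and 2.85 with AP, a difference of 0.46 (standard error 0.23). The INK4 inhibitor genes Cdkn2b, Cdkn2c and Cdkn2d overlapped between the groups, with differences of -0.13, -0.07 and -0.27.

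G1 cyclins and their kinases mostly overlapped between the groups. Of the 6 compared, 2 were higher on both AP arrays and 0 lower, where 20.1% and 17.3% of all named genes were. Ccnd1, which encodes cyclin D1, was at 0.32 and 3.29 with vehicle and at 0.30 and 0.58 with AP. The high vehicle array made the whole difference of -1.36 (standard error 1.01), and it was 0.12 without that array. Ccnd2 and Ccnd3, which encode the other D cyclins, differed by -0.35 and -0.11, and by -0.03 and -0.09 without vehicle replicate 2. Ccne1, which encodes the cyclin E that pairs with CDK2, was higher on both AP arrays, at 0.55 and 0.27 against 0.12 and 0.00. Its difference was 0.35 (standard error 0.22). Cdk4, the kinase of the D cyclins, was also higher on both AP arrays, at 4.02 and 3.71 against 3.33 and 3.66. For that gene AP replicate 2 lay barely above vehicle replicate 2. The other 2 Cdk4 probes differed by 0.25 and 0.30 with overlapping groups, beside 0.37 for the one used. Cdk2 differed by -0.02, and Ccne2 was well above background on no array. The median difference of the 6 genes compared was -0.07, and 0.05 without vehicle replicate 2.

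S-phase genes had 2 members lower on both AP arrays, Rrm1 and Tyms, and 0 higher, and 10 of the 12 compared overlapped. The 2 lower genes are 16.7% of the 12, beside 17.3% of all named genes. Rrm1, the large subunit of ribonucleotide reductase, was at 1.98 and 1.75 with vehicle and 1.41 and 1.26 with AP. That was 1.44-fold lower (difference -0.53, standard error 0.22). Tyms, which makes thymidylate, was at -1.88 and -2.14 with vehicle and -2.46 and -2.55 with AP, 1.40-fold lower (difference -0.49, standard error 0.22). Both genes were lower on vehicle replicate 2 than on vehicle replicate 1, and without it the differences were -0.64 and -0.62. With normexp the Tyms difference was -0.12. Rrm2, the small subunit that is made in S phase, showed no such split, with levels of -1.64 and 0.21 against -0.56 and -1.14, and its difference went from -0.13 to 0.79 without vehicle replicate 2. Both Rrm1 and Tyms had a promoter window, and neither window held the E2F motif.

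The Mcm2 to Mcm7 genes encode the replicative helicase, whose 6 subunits work as one ring. None of them separated the groups. Mcm5 had the lowest difference, -0.83 (standard error 0.61), from levels of -1.35 and 0.30 with vehicle and -1.10 and -1.62 with AP. Mcm7 had the highest, 0.55 (standard error 0.43), from levels of 1.19 and 2.25 with vehicle and 2.49 and 2.04 with AP. Between these lay Mcm2 at -0.46, Mcm3 at -0.30, Mcm6 at -0.24 and Mcm4 at 0.14. Set against vehicle replicate 1 alone, the subunits ran from -0.01 for Mcm5 to 1.08 for Mcm7. Mcm6, whose upstream stretch above holds E2F motifs, was at 0.91 and 2.35 with vehicle and 1.57 and 1.21 with AP, so that only the second vehicle array was above the AP arrays.

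The licensing factors Cdc6 and Cdt1, which load the helicase, differed by 0.30 and 0.31 with overlapping groups. Without vehicle replicate 2 both were higher on both AP arrays, by 0.59 and 1.11, although Cdc6 was not well above background on vehicle replicate 1. A dimmer Cdc6 probe was well above background on 1 array. Pcna, the sliding clamp of the replication fork, differed by 0.10 from levels of 3.33 and 3.69 with vehicle and 3.69 and 3.54 with AP, and by 0.28 without vehicle replicate 2. Tk1, thymidine kinase, was well above background on vehicle replicate 2 alone, where it read -0.09 against -4.73, -4.15 and -4.94 elsewhere, and no fold between the groups is given. For the 12 genes compared, the median difference was -0.18 and turned to 0.44 without vehicle replicate 2. Against vehicle replicate 1 alone, 8 of them were higher on both AP arrays, where 32.7% of all named genes were. On vehicle replicate 2, 7 of the 12 were at least 2-fold over vehicle replicate 1, where 6.34% of all named genes were.

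**Figure D3:**
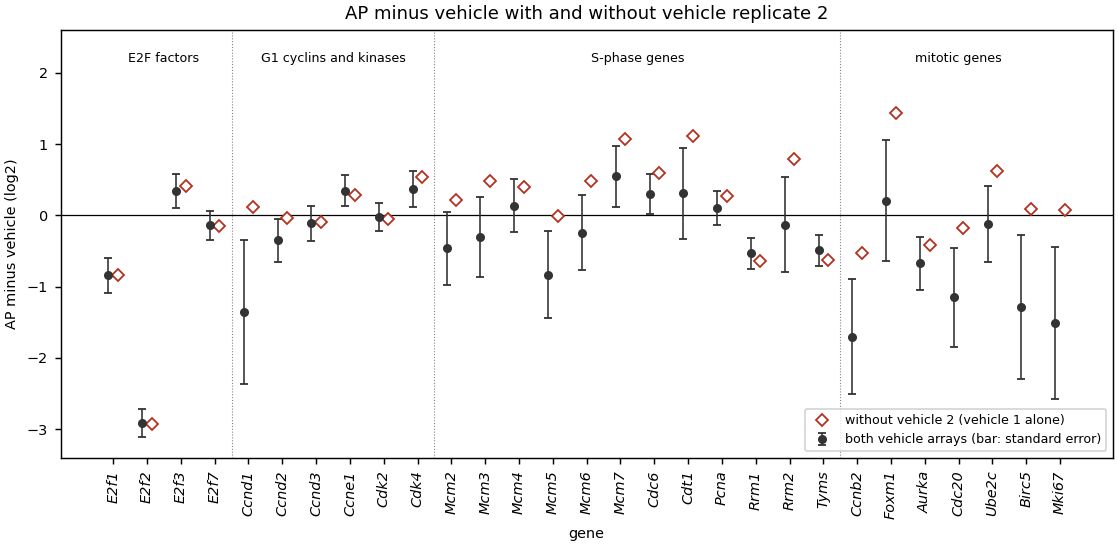
AP minus vehicle on the log2 scale (y axis) for each gene compared (x axis) except Ccnb1, which was not well above background on either AP array. Filled points use both vehicle arrays with the standard error as a bar. Open diamonds use vehicle replicate 1 alone, where Cdc6 and Foxm1 were not well above background. E2f1 and E2f2 keep their place, whereas most S-phase and mitotic genes move up when vehicle replicate 2 is left out, as Mki67 does from -1.51 to 0.08.

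Few mitotic genes were well above background throughout. Of the 14, 5 were well above background on all 4 arrays, 8 were compared, 3 (Ccna2, Plk1 and Top2a) were well above background on vehicle replicate 2 alone and 2 (Aurkb and Bub1) on none. Of all 20145 genes, 2.4% were well above background on vehicle replicate 2 alone and 60.3% on all 4 arrays. The other arrays had smaller shares of genes seen on them alone, 0.74% on vehicle replicate 1, 0.839% on AP replicate 1 and 0.606% on AP replicate 2. Every one of the 8 genes compared was highest on vehicle replicate 2, where 23.9% of all named genes were. The median difference of the 8 was -1.22, and -0.05 without vehicle replicate 2. With Ccnb1 on the AP arrays set at the lowest signal well above background there, it was -1.18.

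Mki67, the proliferation marker Ki-67, was at -2.69 and 0.50 with vehicle and -2.58 and -2.63 with AP. Vehicle replicate 2 was 9.12-fold over vehicle replicate 1, and the other 3 arrays lay within about 0.1 of each other. The difference of -1.51 (standard error 1.07) became 0.08 without it, and a second Mki67 probe also differed by -1.55. Birc5, which encodes survivin, a subunit of the chromosomal passenger complex, behaved in the same way, at -2.09 and 0.66 against -1.39 and -2.61, and its difference went from -1.28 to 0.09 without that array. Cdc20, an activator of the anaphase-promoting complex whose CHR and CCAAT letters are shown above, was at -2.26 and -0.30 with vehicle and -2.17 and -2.70 with AP, and its difference went from -1.15 to -0.17. Ube2c, the ubiquitin-conjugating enzyme of that complex, differed by -0.12, and by 0.62 without vehicle replicate 2, while its second probe differed by -0.62.

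Ccnb1, Ccnb2 and Aurka were the compared mitotic genes lower on both AP arrays. They are 37.5% of the 8 compared, where 17.3% of all named genes were lower. On the higher side were 0 of the 8, where 20.1% of all named genes were. Ccnb1 encodes cyclin B1, the partner of CDK1 at entry into mitosis. It read -2.52 and -2.46 with vehicle, and was not well above background on either AP array, with measured signals of -3.83 and -5.62. Set against the lowest signal well above background on each AP array, or the gene's own signal where higher, the vehicle mean was 2.32-fold higher. That lowest signal was -3.66 on AP replicate 2, where Ccnb2 read -3.32 without being well above background. The 2.32-fold is therefore an estimate and not a strict bound. With normexp the measured difference of Ccnb1 was -0.27. Its 2 other probes were well above background on no array. Unlike the other mitotic genes compared, Ccnb1 had vehicle arrays that were 0.06 apart.

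Ccnb2, a second B-type cyclin, was at -2.77 and -0.40 with vehicle and at -3.26 and -3.32 with AP, the latter array not well above background. Its difference was -1.70 (standard error 0.81), and -0.52 from vehicle replicate 1. Aurka, which encodes the spindle pole kinase Aurora A, was at -1.28 and -0.75 with vehicle and -1.30 and -2.07 with AP. AP replicate 1 and vehicle replicate 1 were 0.02 apart for that gene, so the groups barely separated. Its difference was -0.67 (standard error 0.37), and -0.41 without vehicle replicate 2. Foxm1, a transcription factor that turns on mitotic genes, was at -4.71 and -2.25 with vehicle and -3.12 and -3.42 with AP, and vehicle replicate 1 was not well above background. Its difference was 0.21, with a standard error of 0.85, and both AP arrays lay between the vehicle arrays.

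Among the mitotic genes not compared, Ccna2, Plk1 and Top2a were seen on vehicle replicate 2 alone. Cyclin A2, from Ccna2, read -0.77 there and -3.60, -4.65 and -4.25 on vehicle replicate 1 and the AP arrays. Plk1, a kinase of mitotic entry, read -1.03 there and -3.56, -3.47 and -3.57 on the other arrays. Top2a, the topoisomerase that untangles sister chromatids, was at -2.60 there and between -5.64 and -5.50 elsewhere. With 1 array well above background, no fold between the groups is given for these genes. Cdk1 was well above background on vehicle replicate 2 (-2.63) and AP replicate 1 (-3.18), 1 array of each group.

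**Figure D4:**
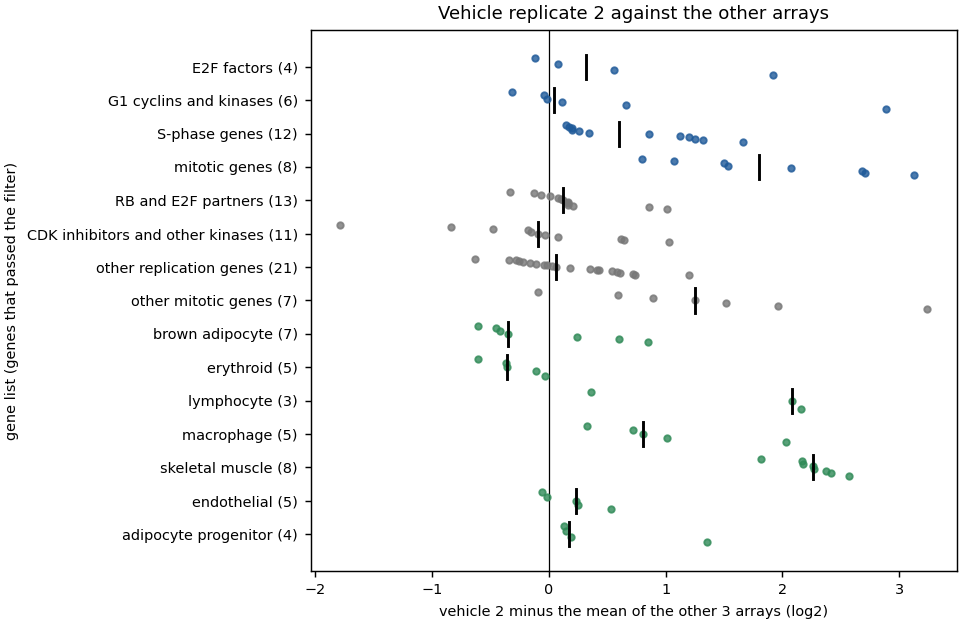
Vehicle replicate 2 minus the mean of the other 3 arrays on the log2 scale (x axis) for each gene compared (points) in the 4 roles, in further cell cycle lists and in cell type markers (y axis, number of genes in brackets), with the median as a bar. Mitotic genes have a median of 1.80, S-phase genes 0.60 and G1 genes 0.04, while lymphocyte markers have a median of 2.08 and brown adipocyte markers -0.35; the 2.27 of the skeletal muscle markers comes mostly from their low signal on vehicle replicate 1.

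Further genes of replication lay on both sides of 0, and most further mitotic genes were highest on vehicle replicate 2. Of 24 other replication genes 21 were compared, and 4 were lower (Gins3, Chaf1a, Fen1 and Mcm10) and 4 higher (Orc6, Prim1, Rfc4 and Rpa2) on both AP arrays, 19.0% on each side beside 17.3% and 20.1% of all named genes, with a median of -0.07. Mcm10, which helps to start the helicase, was the furthest from 0, at -1.84 and -1.68 with vehicle and -2.83 and -2.52 with AP. Its difference was -0.92 (standard error 0.23), and -0.84 without vehicle replicate 2. Of 20 other mitotic genes, 7 were well above background on vehicle replicate 2 alone, where 2.4% of all genes were. A further 5 were so on no array, and 7 were compared. Of those 7 compared, 6 were highest on vehicle replicate 2, where 23.9% of all named genes were. Prc1 and Cenpa were lower and Anln higher on both AP arrays, 28.6% and 14.3% beside 17.3% and 20.1% of all named genes. Prc1 was not well above background on either AP array. The median of the 7 was -0.39, and -0.11 without vehicle replicate 2.

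Genes with an E2F motif in a promoter window lay on both sides of 0 in the comparison of AP with vehicle. Of the 11 with the motif 10 were compared, with differences from -2.91 for E2f2 to 0.55 for Mcm7 and a median of -0.08, or 0.44 without vehicle replicate 2. The 16 compared genes whose windows lacked it had a median of -0.51, or 0.00 without that array. E2f2, E2f3 and E2f7 carried the motif, and E2f1 did not by these letters. Groups of genes with and without the motif were not tested against each other.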

How the data were processed

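BAT RNA of 4 Tg mice was labeled with Cy3 and hybridized to Agilent one-color arrays. The authors extracted the scans with Agilent Feature Extraction 10.7.1.1 and deposited the intensity of each spot, on a linear scale and without normalization between arrays, and also a table of log2 values. Of scale, centring and direction, the centring of that deposited log2 table was not stated. Its medians were -0.284, -0.160, -0.437 and -0.293, and its differences between arrays followed those of the scanner values (r of at least 0.9986 across 29061 probes). It served as an alternative only.

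Here, control spots and outlier-flagged spots were left out, spots of 1 probe were averaged, and log2 of the processed signal minus the array's 75th percentile was used. That percentile was 118.9 and 158.7 with vehicle and 127.6 and 118.5 with AP, 46.4% to 49.0% of spots were well above background and 0 were saturated. Precision is set by the small number of arrays. Of 55681 probes, 26582 were named through RefSeq accessions (GRCm38.p6, names only), and the brightest probe stood for a gene. Groups were compared with limma 3.58.1 (R 4.3.3), lmFit and eBayes without a block, with Benjamini-Hochberg adjustment over all 24970 probes. The script was tested on simulated data. No source says whether the mice came from separate litters, so p-values measure only the spread between these samples. All 39 genes, and context and marker lists, were named by role. The members and lists were chosen with earlier results of these data known. Alternatives were other scalings and filters, the authors' table, a variance trend, the methods' t-test, replicate blocks and leaving out each mouse.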

Additional observations from a re-analysis of the deposited data

How the results depend on the processing

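With 2 mice per group, and 0 probes past the adjusted threshold (limma, or the methods' t-test) in any alternative, where 1003 to 2610 were under 0.05 unadjusted, values are descriptions. The difference of E2f2 was negative in every alternative run, at -2.37 with normexp background correction, -2.83 with the median of each array, -3.07 with the authors' log2 table and -2.97 to -2.85 with a mouse left out. The median of the E2F factors was -0.19 with normexp, -0.65 with the authors' table and -0.84 with no filter on dim probes, against -0.49, and -0.55 to -0.42 with a mouse left out. With normexp, E2f1 was -0.35, Ccnb1 -0.27 and Mki67 -0.76. Members higher on both AP arrays numbered 3, and 1 with the authors' table. Members at an unadjusted p under 0.05 numbered 3, and 5 with the crossed pairing and 1 by the methods' t-test.

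Single mice moved the counts and the medians. The count of members lower on both AP arrays was 8, and 9 to 21 with a mouse left out (21 without vehicle replicate 1, 13 without AP replicate 1). The count higher on both was 3 to 14 (14 without vehicle replicate 2, 7 without AP replicate 2), and that at an unadjusted p under 0.05 was 2 to 12 (12 without vehicle replicate 1). The median of the mitotic genes ran from -2.20 without vehicle replicate 1 to -0.05 without vehicle replicate 2, with -0.39 by normexp against -1.22, that of the S-phase genes from -0.45 to 0.44 and that of the G1 genes from -0.10 to 0.05. Of the 30 members compared, leaving out vehicle replicate 2 turned the sign of 8, leaving out vehicle replicate 1 that of 6, and neither turned E2f1 or E2f2. A lone mouse was assumed to vary like the other group. The causes of the other moves were not tested.

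Nothing in the labels pairs the mice by replicate number, and deviations of same-numbered mice correlated at -0.13. With a replicate block E2f2 stayed at -2.91, 3 members were under an unadjusted p of 0.05, and 0 probes passed the adjusted threshold with 1227 under 0.05 before adjustment. The crossed pairing, chosen after the data were seen, gave 0 and 1567. The slide and the scan as a block were not run, as there was 1 of each, and normexp used the median spot signal, the column held here.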
